A study of Rattus norvegicus with 10 samples.

Results

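The genes described here are 10 targets or brakes of the ERK pathway in rat thyroid cells. They are the phosphatases Dusp4, Dusp5 and Dusp6, the inhibitors Spry2, Spry4 and Spred1, the Ets factors Etv4 and Etv5, and the ERK output genes Phlda1 and Ccnd1. Every non-control probe whose transcript belongs to 1 of these genes was taken, which gave 12 probes for 10 of the 15154 genes named on the array. Etv5 and Spry4 each had 2 probes.

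PCCl3 is an established rat cell line derived from thyroid follicles. The conditions were siFoxE1 PCCl3, transfected with 25 nM of a pool of siRNAs against FoxE1, siScramble PCCl3, given 25 nM of a non-targeting pool, and wt PCCl3, which were not transfected. At 48 h after transfection, RNA was compared on 10 arrays of 2 dyes. Each comparison, siFoxE1 vs siScramble or siFoxE1 vs wt, had 5 arrays, of which 4 paired individual cultures (siFoxE1 labelled with Cy5) and 1 was a dye swap on pooled RNA. All conditions are the same cell line, so the wt cells are a transfection-free reference and not a different genotype. Each pool was made from those 4 cultures, which keeps n at 4. In the separate fits, on the 5 arrays of a comparison, the residual spread is that between these cultures. The pool has the same weight in each estimate as the 4 other arrays together. It is treated as an independent array though it holds their RNA, so these p-values do not rest on the cultures alone. In joint fits of all 10 arrays the pools also enter the residual spread, so those p-values do not measure the spread between cultures alone. Arrays of the same replicate number share 1 siFoxE1 extract.

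The ERK pathway carries signals from growth factor receptors through Ras, Raf and MEK to the kinases ERK1 and ERK2. Active ERK switches on its own brakes: dual-specificity phosphatases that remove phosphate from ERK, and Sprouty and Spred proteins that act between the receptor and Raf. Etv4 and Etv5 are transcription factors of the Pea3 group induced by the same signal, and in thyroid tumours this group of genes is widely used as a readout of ERK output.

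FoxE1, the silenced forkhead factor, had log2 ratios of siFoxE1 over siScramble of -0.77, -0.46, -0.62 and -0.39 in replicates 1 to 4 and -1.03 in the pool. Against wt they were -0.52, -0.55, -0.34 and -0.62, and -1.21 in the pool. Its fitted log2 fold change was -0.80 against siScramble and -0.86 against wt (limma, adjusted p = 0.0228 and 0.0333). Both lie further from 0 than any individual culture, because the dye term gives the pool the same weight as the 4 other arrays together. The ratio of FoxE1 did not pass the test between replicate numbers (limma F test, adjusted p = 0.664). In RNA from whole cultures, fewer cells expressing a gene and less RNA per cell cannot be told apart. Thyroid follicular markers were well above background in both dyes of all 10 arrays for 10 of 13 genes, Tg, Tshr and Pax8 among them, and Epcam was above background in none. Of the markers of other cells, 3 of 7 for fibroblasts, 2 of 6 for leukocytes, 1 of 4 for endothelium and 1 of 4 for C cells were above background throughout, with summed signals of at most 910, against 95900 to 139357 for the thyroid list.

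Dusp5, Dusp6 and Etv5 had ratios that reached well below 0 and varied alike between cultures, so the sequence upstream of their start sites is shown. RefSeq sequences of build GRCr8 matched 6 of the 10 members to 1 promoter each. The 250 bases before the start are given 5′ to 3′, with capitals on matches, on either strand, to the forkhead core AAACA, the ETS core CCGGAA, the cAMP response core TGACG, the AP-1 site TGANTCA and the CArG box, the site of serum response factor. The CArG box was added after the sequences were seen. Of all 33469 promoters of this length, 47% held the forkhead core, 12.6% the ETS core, 18.2% the cAMP core, 6.34% the AP-1 site and 1.5% a CArG box.
Dusp5, chr1:262543524-262543773, plus strand: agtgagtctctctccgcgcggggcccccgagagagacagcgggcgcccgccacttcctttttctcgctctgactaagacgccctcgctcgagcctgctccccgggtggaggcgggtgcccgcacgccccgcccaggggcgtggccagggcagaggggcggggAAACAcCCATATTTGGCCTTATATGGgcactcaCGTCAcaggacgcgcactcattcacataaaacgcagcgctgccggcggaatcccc
Dusp6, chr7:35979354-35979603, plus strand: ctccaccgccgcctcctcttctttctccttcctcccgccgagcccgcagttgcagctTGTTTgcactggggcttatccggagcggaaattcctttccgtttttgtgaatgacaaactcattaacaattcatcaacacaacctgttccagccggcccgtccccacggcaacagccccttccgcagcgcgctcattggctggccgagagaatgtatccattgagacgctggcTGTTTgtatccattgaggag
Etv5, chr11:92113013-92113262, plus strand: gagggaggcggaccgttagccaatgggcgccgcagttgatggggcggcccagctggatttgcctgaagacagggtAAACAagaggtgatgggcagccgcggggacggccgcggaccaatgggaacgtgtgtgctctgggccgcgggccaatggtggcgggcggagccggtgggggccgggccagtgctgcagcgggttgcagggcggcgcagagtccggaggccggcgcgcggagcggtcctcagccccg

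The Dusp5 window held 1 forkhead core, which starts 88 bases before the start site, 2 adjoining CArG boxes, and 1 cAMP core. The Dusp6 window held the forkhead core at 2 places and the Etv5 window at 1, and neither held any of the other motifs. The ETS core was present in the windows of Spry4 and Phlda1, at 1 place each, and Spred1 held none of the motifs searched. These are matches of letters and not binding sites.

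All 12 probes were tested in both comparisons, and 0 passed at an adjusted p under 0.05 in either (limma). Over all probes, 0.121% of 18139 passed against siScramble and 0.0486% of 18526 against wt, so few probes of any kind did. At an unadjusted p under 0.05, 6 member probes of 5 genes were lower in siFoxE1 than in siScramble, where the share over all probes was 6.7%, and 1 was higher, where it was 6.42%. Against wt 6 were lower, with 9.14% of all probes, and 1 was higher, with 8.02%. Dusp4, Dusp5, Dusp6 and both Etv5 probes were lower in both comparisons, and Ccnd1 was higher in both. The sixth lower probe was that of Phlda1 against siScramble and the dimmer Spry4 probe against wt. The median log2 fold change of the 12 probes was -0.21 against siScramble and -0.32 against wt, and that of all probes tested was -0.008 and -0.012. Both comparisons use the same siFoxE1 RNA and are not independent. The members were chosen with earlier results of these data known. These counts, and those of the block fit and the number test below, therefore cannot test for an excess over all probes.

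When the replicate number was a block in 1 fit of all 10 arrays, 6 of the 12 probes passed against wt, where 8.17% of all probes did. The pools form a block there beside the cultures whose RNA they hold, so the same RNA counts again. Dusp4, Dusp5, Dusp6 and both Etv5 probes fell in that fit and Ccnd1 rose. The same fit without the block passed 5 of 12 against wt (those probes but Dusp5), where 9.32% of all probes did, and 0 against siScramble, where 0.545% did. Without the block, arrays that share 1 siFoxE1 extract count as independent. Against siScramble 0 of 12 passed with the block, where 0.359% of all probes did, and 7 of 12 were under an unadjusted 0.05 in the separate fit.

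**Figure D1:**
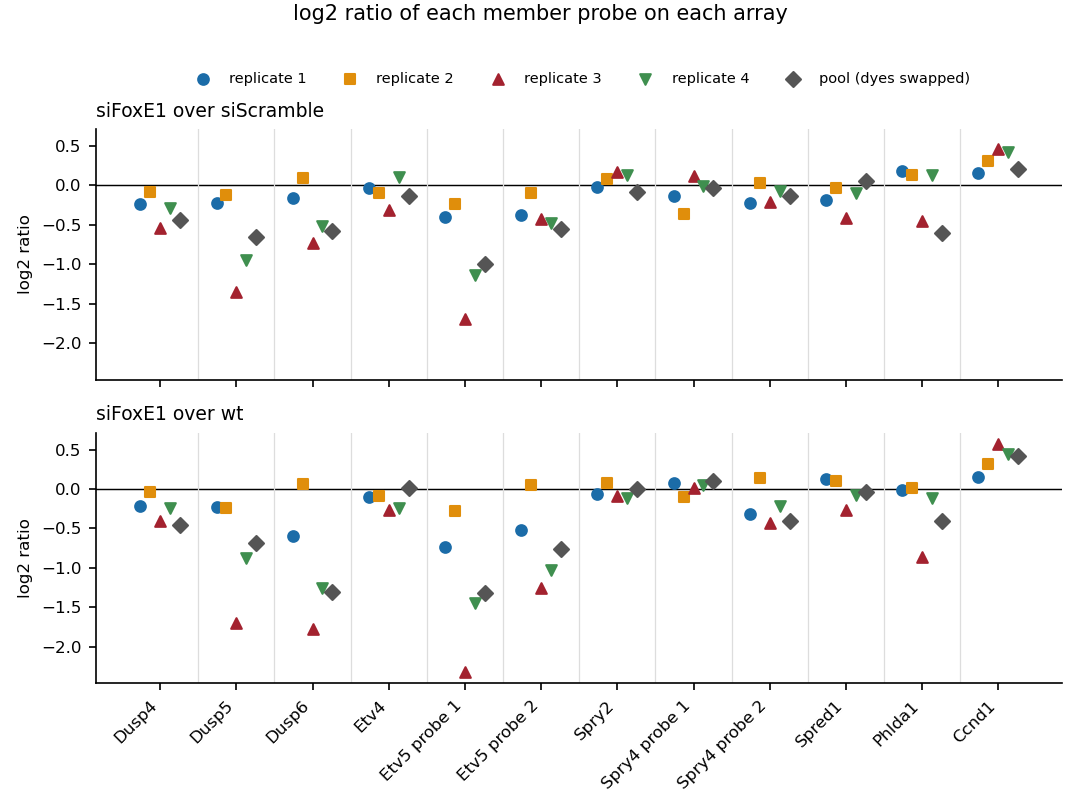
The log2 ratio of siFoxE1 over siScramble (top) or wt (bottom) for each of the 12 probes on each of the 10 arrays, coloured and shaped by replicate number, with the dye-swapped pools as grey diamonds. Replicate 3 is the lowest individual array for Dusp5, Dusp6, the brighter Etv5 probe and Phlda1 in both panels, and all Ccnd1 points lie above 0.

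Dusp5, a nuclear phosphatase specific for ERK, had log2 ratios over siScramble of -0.22, -0.12, -1.35 and -0.95 in replicates 1 to 4 and -0.65 in the pool. Over wt the values were -0.23, -0.24, -1.70 and -0.87, and -0.68 in the pool. All 10 arrays were below 0, but replicates 1 and 2 lay close to it and replicates 3 and 4 far from it in both comparisons. The mean of the 4 cultures was -0.66 ± 0.59 (SD, n = 4) over siScramble and -0.76 ± 0.70 over wt. The fitted change was 1.58-fold lower (adjusted p = 0.285) and 1.65-fold lower (adjusted p = 0.263, and 0.0484 with the replicate block).

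Dusp6, the cytoplasmic ERK phosphatase, had ratios over siScramble of -0.16, 0.10, -0.73 and -0.52 in replicates 1 to 4 and -0.58 in the pool. Over wt they were -0.59, 0.06, -1.78 and -1.26, and -1.31 in the pool, larger in size than over siScramble except in replicate 2. Replicate 2 was the only culture above 0, and it was so in both comparisons. The fitted log2 fold change was -0.45 ± 0.143 (SE) against siScramble (adjusted p = 0.271, and 0.392 with the block) and -1.10 ± 0.308 against wt (adjusted p = 0.234, and 0.0189 with the block). Dusp4, a nuclear phosphatase of ERK and JNK, had ratios that ran from -0.54 to -0.08 over siScramble and from -0.41 to -0.04 over wt, with pools at -0.44 and -0.45. All 10 Dusp4 arrays were below 0. Its adjusted p was 0.222 against siScramble, or 0.0713 with the block, and 0.234 against wt, or 0.0288 with the block. With the processed signals its fitted log2 fold change was -0.87 against siScramble, beside -0.48 for Dusp6, and -0.69 against wt, beside -1.22, so the order of the genes against siScramble turned.

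Etv5, the Pea3-group Ets factor, had the lowest ratios of the 10 genes. Its brighter probe, A_44_P635089, gave -0.40, -0.24, -1.69 and -1.14 over siScramble and -0.99 in the pool. Over wt it gave -0.73, -0.28, -2.32 and -1.45, and -1.32 in the pool. The order of the cultures was the same in both comparisons, with replicate 3 lowest and replicate 2 nearest 0. The fitted change was 1.9-fold lower against siScramble (adjusted p = 0.223, and 0.16 with the block) and 2.39-fold lower against wt (adjusted p = 0.234, and 0.0172 with the block).

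The dimmer Etv5 probe, A_44_P263117, for the same transcript, gave smaller values on this scale. Over siScramble they were -0.37, -0.10, -0.42 and -0.47, with -0.55 in the pool, so replicates 1, 3 and 4 were alike there. Over wt they were -0.52, 0.05, -1.26 and -1.03, with -0.76 in the pool, which keeps the order of the brighter probe. The fitted log2 fold change was -0.44 ± 0.0843 (SE) against siScramble (adjusted p = 0.168, and 0.335 with the block) and -0.72 ± 0.228 against wt (adjusted p = 0.239, and 0.0274 with the block). With the processed signals of the scanner software, which lack the offset used here, the fitted values of both probes were alike, at -0.97 and -0.97 against siScramble and -1.32 and -1.33 against wt for the brighter and the dimmer probe.

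Etv4, the close relative of Etv5, stayed between -0.31 and 0.11 on the 10 arrays. Its fitted log2 fold change was -0.11 ± 0.0871 (SE) against siScramble and -0.08 ± 0.0728 against wt, with adjusted p of 0.663 and 0.586. Its culture means of the log2 ratio spanned 0.23 between replicate numbers, against 1.75 for the brighter Etv5 probe.

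The Sprouty and Spred genes, which encode inhibitors acting upstream of ERK, had small ratios on this scale. Spry2 lay between -0.12 and 0.17 and was well above background in the siFoxE1 dye on only 3 of 10 arrays, and in the reference dye on 7. The brighter Spry4 probe lay between -0.36 and 0.12. Its siFoxE1 level differed by up to 0.95 log2 units between the arrays of 1 number, which is more than any of its ratios. The dimmer Spry4 probe, above background in the siFoxE1 dye on 2 arrays, lay between -0.43 and 0.14, and Spred1 between -0.41 and 0.13. Adjusted p ran from 0.554 to 0.993 against siScramble and from 0.259 to 0.892 against wt over these 4 probes. With the processed signals, which lack the offset, the dimmer Spry4 probe had fitted values of -0.70 against siScramble and -1.02 against wt. Those of Spry2, Spred1 and the brighter Spry4 probe ran from -0.21 to 0.04 against siScramble and from -0.12 to 0.04 against wt.

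Phlda1, a pleckstrin homology protein induced by ERK, had ratios over siScramble of 0.18, 0.13, -0.45 and 0.13, with -0.60 in the pool. Over wt they were -0.01, 0.01, -0.86 and -0.11, with -0.41 in the pool. Replicate 3 alone was clearly below 0 among the individual cultures. The 4 cultures over siScramble averaged 0.00 ± 0.30 (SD, n = 4), and the fitted -0.30 (adjusted p = 0.349) came from the pool, which the dye term gives the same weight as the 4 other arrays together. Against wt the fitted value was -0.33 (adjusted p = 0.348).

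Ccnd1, the cyclin D1 gene, which drives entry into the cell cycle downstream of ERK, was the 1 member above 0 on all 10 arrays. Its ratios over siScramble were 0.16, 0.31, 0.46 and 0.42, with 0.21 in the pool. Over wt they were 0.15, 0.32, 0.57 and 0.44, with 0.42 in the pool. The fitted change was 1.21-fold higher against siScramble (adjusted p = 0.246, and 0.148 with the block) and 1.32-fold higher against wt (adjusted p = 0.234, and 0.0202 with the block). Replicate 3, lowest for Dusp5, Dusp6 and Etv5, was highest for Ccnd1.

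**Figure D2:**
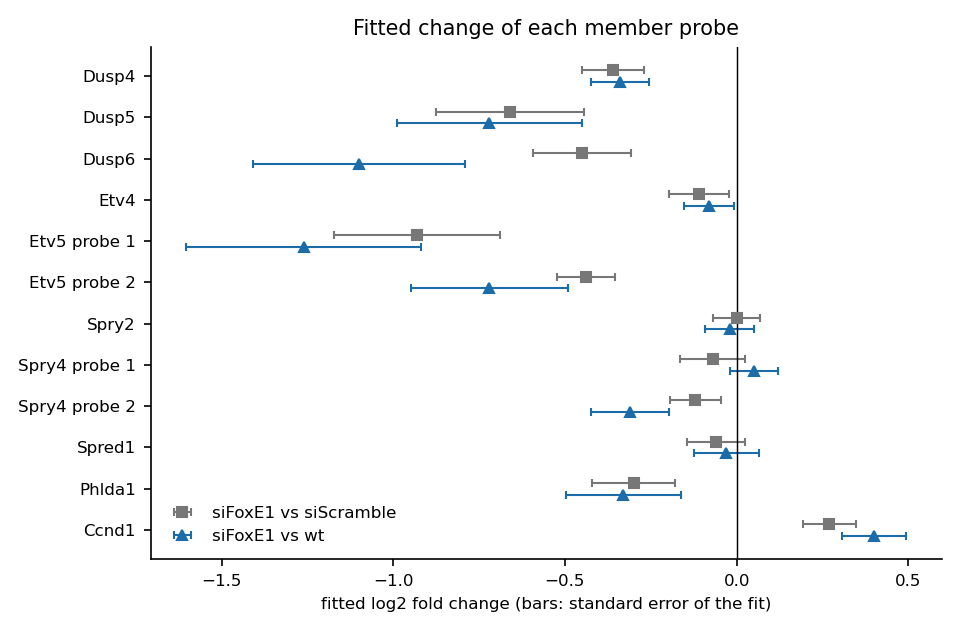
The fitted log2 fold change of each probe in siFoxE1 vs siScramble (grey squares) and vs wt (blue triangles), with bars of 1 standard error of the limma fit. Etv5, Dusp5, Dusp6 and Dusp4 lie below 0, Ccnd1 above, and the Spry2, Spred1, Etv4 and brighter Spry4 values lie within 0.11 of 0.

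The arrays of siScramble replicate 3 and of the siScramble pool lay on a second slide. With slide as a term, the fitted log2 fold change against siScramble was -0.24 for the brighter Etv5 probe, -0.08 for Dusp5, -0.12 for Dusp6, -0.15 for Dusp4 and 0.17 for Ccnd1. On the 3 arrays of the first slide alone the values were -0.59, -0.43, -0.19, -0.20 and 0.30, and 0 of 12 passed in either fit. The slide term rests on replicate 3 alone, since the dye term already takes up the pool. Slide and culture 3 therefore cannot be told apart in that fit. All arrays against wt lay on the first slide, and replicate 3 was the lowest individual array there too, at -2.32 for the brighter Etv5 probe and -1.70 for Dusp5. A slide effect was not tested apart from this culture.

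Wild-type and siScramble cells were compared only indirectly, as the ratio over wt minus the ratio over siScramble. At an adjusted p under 0.05, 0 of 12 member probes passed, as did 0% of 17804 probes; at an unadjusted p under 0.05, 3.39% of all probes passed and 0 members. Dusp6 had the largest difference, with siScramble below wt by -0.43, -0.04, -1.05 and -0.75 log2 units in numbers 1 to 4 and -0.73 in the pool. All 5 values were below 0, and the fitted difference was 1.51-fold lower (adjusted p = 0.988, and 0.258 with the block). That difference is also the test of whether the Dusp6 effect differed between the comparisons, and it did not pass. The brighter Etv5 probe was lower in siScramble than in wt in all 4 numbers, from -0.63 to -0.04, with a mean of -0.33 ± 0.24 (SD, n = 4). Its fitted difference was -0.33 ± 0.373 (SE) without the block, an SE that leaves out the pairing (adjusted p = 0.988, and 0.502 with the block).

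Whether the ratios differed between replicate numbers was asked over the 8 individual arrays, with the comparison and the number as terms. A moderated F test passed for 8 of 12 member probes (7 genes), where 28.1% of all probes passed. The 2 arrays of a number share their siFoxE1 RNA, so their likeness includes that extract, and the test compares 4 siFoxE1 cultures. Its p-values set the spread between numbers against the difference between those 2 arrays. The brighter Etv5 probe had means of -0.56, -0.26, -2.0 and -1.29 for numbers 1 to 4 (adjusted p = 3.8e-04). Dusp5 had -0.22, -0.18, -1.52 and -0.91 (adjusted p = 5.2e-04). Both sets run in the same order, with number 3 lowest and number 2 highest.

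Dusp6 had means of -0.37, 0.08, -1.26 and -0.89 (adjusted p = 0.00541) and Phlda1 0.08, 0.07, -0.65 and 0.01 (adjusted p = 0.00324). For Dusp6 the 2 arrays of number 3 differed by 1.05, nearly as much as its means did (1.34). Dusp4, the dimmer probes of Etv5 and Spry4, and Ccnd1 passed with adjusted p of 0.0317, 0.0359, 0.046 and 0.0463. The dimmer Spry4 probe entered this test by its reference dye alone. Etv4, Spry2, Spred1 and the brighter Spry4 probe did not pass, with adjusted p from 0.0598 to 0.772. Without replicate 2, 4 probes passed (Dusp5, Dusp6, the brighter Etv5 probe and Phlda1), and without replicate 3, 4 passed (Dusp5, Dusp6 and both Etv5 probes). With the scanner software's processed signals, 2 passed (Dusp5 and the brighter Etv5 probe), where 146 of all 17804 probes passed.

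The level of each gene in each culture shows where the numbers parted. A level is the log2 of the normalized intensity in 1 dye, so it is compared only within a probe. Etv5 (brighter probe) had levels in wt of 11.76, 9.38, 11.73 and 11.64 for numbers 1 to 4. In siScramble the levels were 11.37, 9.41, 10.76 and 11.20, and in siFoxE1 11.00, 9.14, 9.24 and 10.12. Number 2 was low in all 3 conditions, number 1 was high in all 3, and the siFoxE1 culture was below both references in every number, by the widest margins in numbers 3 and 4.

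Dusp5 had wt levels of 12.24, 10.65, 12.46 and 12.37, siScramble levels of 12.17, 10.54, 11.91 and 12.37, and siFoxE1 levels of 11.98, 10.41, 10.66 and 11.46. The pattern was that of Etv5, with number 2 low in every condition. The spread between the 4 untreated wt cultures (SD 0.86 for Dusp5, 1.17 for Etv5) exceeded the mean ratio of Dusp5 over wt and was close to that of Etv5. Without the wt culture of number 2, the lowest wt value of both genes, the SDs were 0.11 and 0.06. Leaving out the lowest value lowers the spread, and the mean ratios still include number 2, so these SDs are not set against them. Across numbers the levels in siFoxE1 and in wt overlapped for both genes, whereas within each number, the unit that pairs the samples, siFoxE1 was below wt in 4 of 4.

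Dusp6 levels were 10.75, 8.90, 10.31 and 10.11 in wt, 10.29, 8.91, 9.28 and 9.28 in siScramble, and 10.15, 8.98, 8.54 and 8.80 in siFoxE1. In all 4 numbers siScramble lay between the other conditions, within 0.1 log2 units of both in number 2. Phlda1 levels were 9.58, 8.46, 9.80 and 9.70 in wt, 9.28, 8.25, 9.16 and 9.60 in siScramble, and 9.51, 8.43, 8.83 and 9.66 in siFoxE1, so number 2 was the lowest culture of each condition. Ccnd1 differed from these genes: its wt levels were 12.39, 12.44, 12.53 and 12.51 (SD 0.07), and its siFoxE1 levels, 12.56, 12.76, 13.13 and 12.97, all lay above them.

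**Figure D3:**
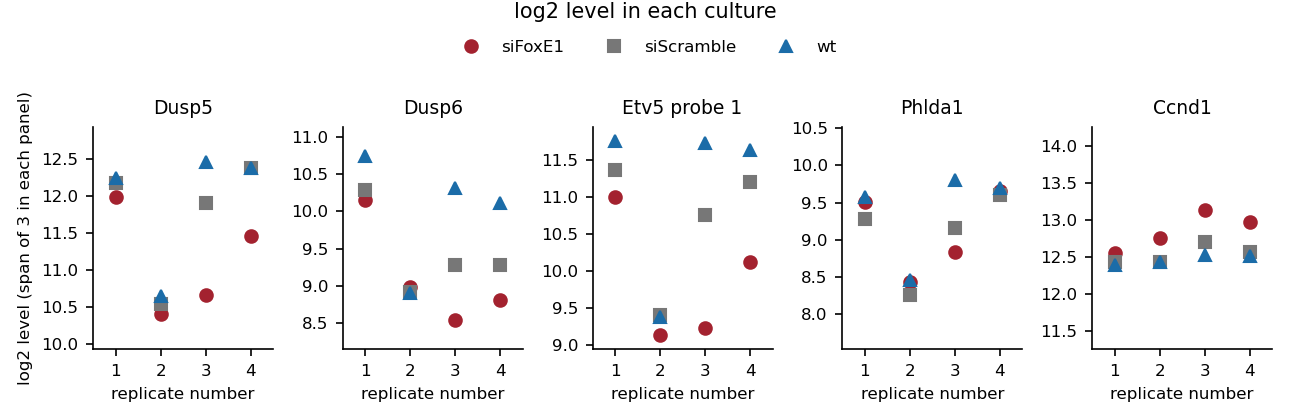
The log2 level of 5 member probes in each culture, by replicate number, for siFoxE1 (red circles, mean of 2 arrays), siScramble (grey squares) and wt (blue triangles), each panel spanning 3 log2 units. Number 2 is low in all conditions for Dusp5, the brighter Etv5 probe and Phlda1, whereas every siFoxE1 value of Ccnd1 lies above its wt values.

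The genes whose log2 ratios were most like those of the brighter Etv5 probe over the 8 individual arrays were Eif3h, a translation initiation subunit (Pearson r = 0.997), Sel1l, of the degradation machinery of the endoplasmic reticulum (ER; 0.997), Ficd, which modifies the chaperone BiP (0.996), Calr, calreticulin (0.994), and Hyou1, an ER chaperone (0.994). Pdia4, an ER protein disulphide isomerase (0.993), Gmppb (0.992) and Nbr1 (0.991) followed. Of 9563 genes compared, 660 had r above 0.9 and 736 below -0.9, the arrays of a number share RNA, and no p is given. Among the members, r with the brighter Etv5 probe was 0.971 for Dusp5, 0.935 for Dusp6, 0.875 for Phlda1, 0.828 for Dusp4 and -0.821 for Ccnd1, and it was 0.644 for Spred1, 0.618 for Etv4, 0.227 for Spry2 and -0.666 for the brighter Spry4 probe.

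The ER chaperone list varied between cultures as these members did. Its median log2 ratio over siScramble, from 11 genes, was -0.10, -0.07, -2.04 and -1.40 in replicates 1 to 4 and -0.72 in the pool. Over wt it was -0.38, -0.05, -2.90 and -1.63, and -0.82 in the pool. The median was nearest 0 in replicates 1 and 2, as were Etv5 and Dusp5. In wt cells the median chaperone level was 14.71, 11.37, 14.16 and 14.04 for numbers 1 to 4, so the low culture was again number 2. In the number test 11 of 11 chaperones passed, and in the comparisons 0 did, with 3 lower at an unadjusted p under 0.05 against siScramble and 2 against wt. The median of the replication and mitosis list over wt was -0.31, 0.10, 0.89 and 0.16, and its median wt level was highest in number 2, at 11.49. The part of either list in the members' values was not tested.

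**Figure D4:**
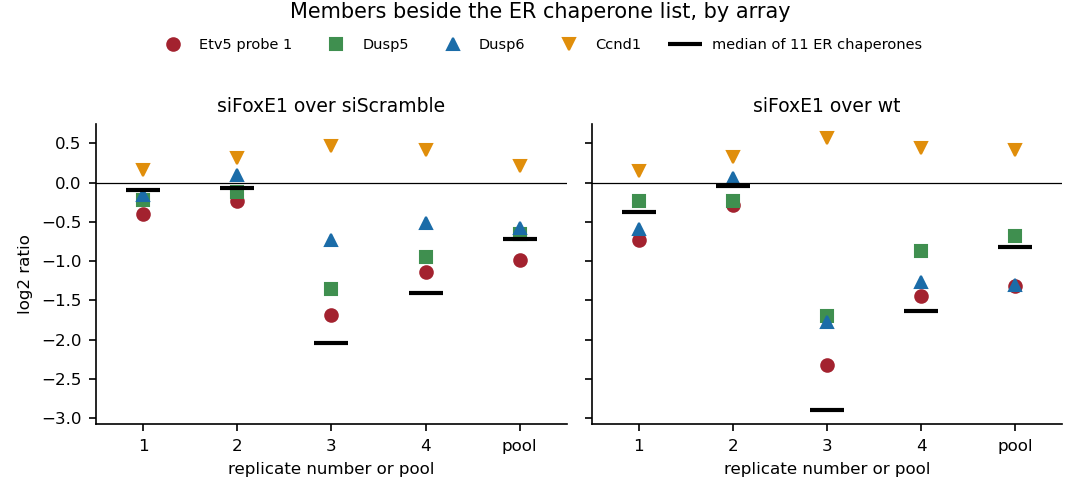
The log2 ratio on each array for Etv5 (brighter probe), Dusp5, Dusp6 and Ccnd1, beside the median of 11 ER chaperones (black bars). Etv5, Dusp5 and the chaperone median are lowest in replicate 3 and nearest 0 in replicates 1 and 2.

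The other genes of the pathway passed in neither comparison: 0 of 9 other MAPK phosphatases tested, 0 of 2 other Sprouty, Spred and Sef genes, 0 of 15 other Ets factors, 0 of 32 receptors and core Ras-ERK genes, 0 of 22 other ERK output genes, 0 of 9 cyclin D partners and inhibitors, and 0 of 1 other Phlda gene. At an unadjusted p under 0.05 against wt, 3 other phosphatases were higher and 2 lower, 3 other output genes were higher and 1 lower, and 5 cyclin D partners and inhibitors were higher and 0 lower. Over all genes 10.9% were higher and 10.4% lower. By the same measure 2 core genes were higher and 3 lower, 1 Ets factor and 1 Phlda gene were higher, and 0 Sprouty-related genes stood out. Against siScramble the counts were 2 higher and 2 lower for the phosphatases, 1 and 2 for the Ets factors, 2 and 3 for the core genes, and 3 and 0 for both the output genes and the cyclin D list, beside 8.75% higher and 7.61% lower over all genes. The median log2 fold change against wt was -0.02 for the other phosphatases, 0.01 for the other Ets factors, -0.03 for the core genes, 0.00 for the other output genes and 0.21 for the cyclin D list, beside 0.00 over all 9578 genes. Only the cyclin D median lay more than 0.1 from that of all genes among these 5.

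For these other genes the log2 fold changes are from the separate fits, and the adjusted p with the block is from the joint fit (limma). Among the other phosphatases, Dusp1, the immediate early phosphatase of p38, JNK and ERK, and Dusp8 were lower against wt (log2 fold changes -0.42 and -0.46, adjusted p with the block = 0.014 and 0.0225). Ptpn7, a tyrosine phosphatase of ERK, was higher (0.38, adjusted p with the block = 0.0138). Against siScramble Dusp1, Dusp8 and Ptpn7 did not pass with the block (adjusted p = 0.268, 0.249 and 0.097). Dusp1 is named because it was 1 of the 3 to pass, after its values were seen. Its means in numbers 1 to 4 were -0.33, -0.41, -0.49 and -0.42, and it did not pass between numbers (adjusted p = 0.637). Dusp2 had a log2 fold change of 0.48 against siScramble and 0.59 against wt (adjusted p = 0.0516 with the block). Its number means of 0.03, 0.35, 1.17 and 0.60 were highest where those of Dusp5 were lowest (number test, adjusted p = 0.00396).

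Of the core genes, Ptpn11, the phosphatase Shp2 that relays receptor signals to Ras, was lower against wt (-0.46, adjusted p with the block = 0.0169, and 0.231 against siScramble). Shc1, a receptor adaptor named after its values were seen, was higher against wt (0.36, adjusted p with the block = 0.0311), with 0.07 against siScramble and 0.29 for siScramble over wt. Map2k1, which encodes MEK1, had number means of -0.29, -0.20, -0.96 and -0.63 (adjusted p = 0.014), the order seen for Etv5, and Fgfr2 had 0.13, 0.07, 0.76 and 0.70 (adjusted p = 0.0145). Elf3, an epithelial Ets factor, was higher against wt (0.43, adjusted p with the block = 0.019, and 0.187 against siScramble). Ets2 and Etv6 did not pass against wt (-0.28 and 0.24, adjusted p with the block = 0.132 and 0.147). Epha2, named after its values were seen, was lower against wt (-0.30, adjusted p with the block = 0.0427), with -0.02 against siScramble. Jun, Junb and Epha4 had log2 fold changes against wt of 0.35, 0.31 and -0.29 and did not pass.

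Of the cyclin D partners and inhibitors, Ccnd3, cyclin D3, and Cdkn2d, an inhibitor of the cyclin D kinases, were higher against wt (0.35 and 0.42, adjusted p with the block = 0.0341 and 0.0484). Against siScramble they did not pass with the block (adjusted p = 0.196 and 0.221). Cdkn2c, another such inhibitor, had 0.44 against wt (adjusted p with the block = 0.0667). Of the remaining genes, Spry3 and Errfi1 had log2 fold changes against wt of -0.07 and -0.12 and Phlda3 had 0.27, none of which passed. In the number test, 4 of 9 other phosphatases, 9 of 22 other output genes, 7 of 32 core genes, 3 of 15 other Ets factors and 3 of 9 cyclin D genes passed, beside 31.8% of all genes.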

How the data were processed

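Spots were quantified by the authors in Feature Extraction 10.7.3.1. The deposited intensity values are median spot and background brightness per dye and background-subtracted processed signals. The deposited log10 ratios of red over green were made by the authors' software from the processed signals and were used only to check the dye direction. The authors' table holds log2 ratios after loess and quantile normalization, and the submitters' notes name limma 3.2.3. The labels give the dyes used here; the colour key of the study's design drawing shows them the other way round. Mean signals were not read.

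Median signals without control and outlier spots were corrected by normexp (offset 50), then loess (within arrays) and quantile (between arrays) normalized, and averaged per probe. Log2 ratios were tested in limma 3.58.1 (R 4.3.3) with a dye term, on the 5 arrays of a comparison, which leaves 3 residual degrees of freedom. Probes entered the test if 3 or more of the 5 arrays showed them well above background in 1 dye. Adjusted p-values are Benjamini-Hochberg over all probes tested. siScramble vs wt was a contrast in 1 fit of 10 arrays, without the replicate block unless stated. The number test was a moderated F test. The fits were tested on simulated data. Alternatives covered background correction, normalization, filters, eBayes settings, the dye and slide terms, the pools, the block and leaving out each replicate. The precision is limited by the 4 cultures per condition.

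Replicate numbers pair the samples because 1 siFoxE1 extract served both arrays of a number. Deviations from the comparison means correlated across probes at r = 0.616, 0.757, 0.764 and 0.406 for equal numbers, and at -0.65 to 0.506 for others, the highest being siScramble number 4 with wt number 3. The block (duplicateCorrelation) had a correlation of 0.541.

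Of 30367 probes, 17998 were named by transcript accession. Other genes were named by fixed rules: per list, the genes that passed and up to 3 with the largest mean fold change by the brightest tested probe, and the 8 genes most like Etv5. The members and lists were chosen with earlier results of these data known. Probe positions are not given, since the genome build of the array design differs from that of the gene table. Plots were made with Python 3.11.15 and matplotlib 3.10.9.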

Additional observations from a re-analysis of the deposited data

Results flagged for a closer look

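In 6 of 60 sets of 4 cultures a single value lay far from the other values by Dixon's test, and chance gives about 5% of sets. The wt culture of replicate 2 was far below the other wt cultures in its log2 level of Dusp5 (10.65), of both Etv5 probes (9.38 at the brighter and 6.49 at the dimmer) and of Phlda1 (8.46). These 4 values come from 1 channel of 1 array. Number 2 was also lowest in siScramble and siFoxE1 for Dusp5 (10.54 and 10.41), the brighter Etv5 probe (9.41 and 9.14) and Phlda1 (8.25 and 8.43). For Phlda1 the log2 ratio of replicate 3 was far below those of the other replicates, at -0.45 over siScramble and -0.86 over wt, and both arrays hold the same siFoxE1 RNA.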

How the results depend on the processing

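With the replicate block, 0 member probes passed against siScramble and 6 against wt, and with each pool as a block of its own, an alternative chosen after seeing the data, 2 (Dusp4 and Ccnd1) and 8 passed. Without the dye term 5 and 2 passed, with the 4 individual arrays only 1 (Ccnd1) and 0, and in 1 fit of all 10 arrays with no replicate block 0 and 5. Over all probes the separate fits gave 22 calls against siScramble and 9 against wt, 1 fit of all 10 arrays without the block 97 and 1659, and the same fit with the block 64 and 1454. Without the dye term 689 of 18139 and 844 of 18526 probes passed, and with the 4 individual arrays only 527 and 211. With each pool as a block of its own, 283 and 3201 of 17804 probes passed. The calls over all probes thus changed with the setting too. The other settings, the methods' threshold of 0.005 and the authors' table among them, left 0 calls in both comparisons, as did each leave-one-out fit (0 to 0 probes). These settings used the fits described here, which may differ from the authors' fit. The paper lists Dusp5 and Etv5 as lower under 0.005 in both comparisons, and found both lower by qRT-PCR in 4 separate silencing experiments. siScramble vs wt had 0 member calls in all settings run. Over all 17804 probes it had 11 calls with the replicate block and 3 with each pool as a block of its own. The number test passed 2 probes with processed signals, 5 with no filter, and 4 to 9 when each replicate was left out, beside 8. Over all probes it passed 146 of 17804 with processed signals and 4396 of 30367 with no filter, beside 4999 of 17804. The direction against siScramble turned for Phlda1 (0.07 with slide as a term, 0.15 on the first slide), Etv4 (0.08) and Spred1 (0.13) with slide as a term, and Spry2 (-0.06 with slide as a term, 0.00 with loess only, -0.01 and 0.00 without replicates 3 and 4, within -0.01 to 0.02 over the leave-one-out fits). Against wt, Spred1 turned to 0.01 without replicate 3 (-0.06 to 0.01 over the leave-one-out fits), 0.01 in the joint fit with and without the replicate block and 0.02 with pools as own blocks. Etv4 in siScramble vs wt turned to 0.03 without replicate 4 (-0.07 to 0.03 over the leave-one-out fits). Dusp4, Dusp5, Dusp6, Etv5 and Ccnd1 kept their direction in both comparisons with siFoxE1 in all settings run, from -1.03 to -0.24 against siScramble and from -1.41 to -1.07 against wt for the brighter Etv5 probe. The cause of these changes was not tested. The mean-signal alternative was not run, since that column was not read. Spry2 and the dimmer Spry4 probe are close to background.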
